A study of Homo sapiens with 4 samples.

Results

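Lysosomal hydrolases and membrane proteins were followed as a panel of 40 genes in cells labelled HGC-27, a human gastric cancer cell line. The genes were chosen by name, by a rule that uses no measured value, although earlier results of these data were known when the panel was chosen. It holds 11 proteases, 10 glycosidases, 4 sulfatases, 7 lipid hydrolases, activators and phosphatases, 7 membrane and cholesterol-transfer proteins, and the transcription factor TFEB. These are 40 of the 31907 gene names that had a count in at least 1 library. All 40 had counts, and all 40 were among the 16361 genes that passed the filter on low counts.

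Lysosomes are acidic compartments in which proteins, sugars, lipids and worn-out organelles are broken down. The hydrolases are made in the endoplasmic reticulum, most are tagged with mannose 6-phosphate in the Golgi, and a proton pump in the lysosomal membrane keeps the lumen acidic enough for them to work. Autophagosomes deliver their cargo by fusing with lysosomes, and TFEB and its relatives MITF, TFE3 and TFEC can switch on many of these genes together by binding a short E-box element in their promoters.

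RNA was sequenced from 4 libraries labelled as the same cell line, with no other agent or genetic change named in the labels. In 2 libraries the cells had received PBS, the vehicle, and in the other 2 they had received recombinant human IL-17B (rIL-17B) at 200 ng/ml, in each case for 48 h. IL-17B is a cytokine of the IL-17 family that signals through the receptor IL-17RB, and the sequencing was done to look for molecular changes that follow its addition. The labels do not say whether the replicates were separate cultures, so the p-values measure only the spread between these libraries, and 1 cell line cannot stand for other gastric tumors.

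The E-box element was looked for in promoters, and the choice of genes did not use sequence. Because the element is already known from promoters of lysosomal genes, the shares below describe the panel and are not independent evidence. RefSeq promoter entries on GRCh38.p14, each running from 250 bases before to 50 bases after a transcription start, were present for 29 of the 40 genes. The motif TCACGTGA, which reads the same on both strands, was in the promoters of CTSA, GAA, LAMP1 and MCOLN1, that is in 13.8% of the 29 genes, against 1.18% of the 27305 genes in the same set. These 4 promoters are shown because they are the genes of the panel in which the element was found. Capitals mark the motif, and each stretch of 30 bases is on the plus strand, which is the strand of the gene.
CTSA, chr20:45891298-45891327, motif 26 bases before the start: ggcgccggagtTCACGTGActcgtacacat
GAA, chr17:80101493-80101522, motif 77 bases before the start: gggaggccgcgTCACGTGAcccaccgcggc
GAA, chr17:80101538-80101567, motif 32 bases before the start: gctcccgccggTCACGTGAcccgcctctgc
LAMP1, chr13:113297199-113297228, motif 29 bases before the start: gacccgcgggaTCACGTGAcgcccgggcgc
MCOLN1, chr19:7522571-7522600, motif 42 bases before the start: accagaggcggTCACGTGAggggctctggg
MCOLN1, chr19:7522598-7522627, motif 15 bases before the start: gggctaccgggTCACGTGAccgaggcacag
LAMP1 holds a further match 2 bases before the start, which is not printed. The shorter motif CACGTG, which lies inside TCACGTGA and is also the same on both strands, was in 9 of the 29 genes or 31.0%: the 4 above and ARSB, CD63, CTSD, CTSF and NEU1. It was in 8.77% of all genes with an entry. A match describes the letters in the window and is not a measured binding site. ARSA, ASAH1, CTSB, CTSK, CTSS, HEXA, LAMP2, MANBA, NAGLU, PSAP and SGSH were not examined for motifs.

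The libraries held between 12888029 and 17555879 counts, and 3 counts, taken as the smallest amount that can be shown, were 0.175 to 0.237 CPM. CPM is the count scaled to the size of its library, here with the TMM factors of edgeR, which lay between 0.97 and 1.07. The treated libraries were unlike each other. Of the 16361 genes tested, 2899 were at least 2-fold apart between rIL-17B replicates 1 and 2 after 0.5 CPM was added, while 110 were that far apart between the PBS libraries. Replicate 1 of rIL-17B stands apart, so the treated libraries are also read separately below. Dividing by library totals instead of using TMM raised the median of all tested genes in that library by 0.14 on the log2 scale.

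Markers of other cell types moved with the same library. The 10 fibroblast markers summed to 53664 and 51896 CPM in PBS replicates 1 and 2, 654 CPM in rIL-17B replicate 1 and 44438 CPM in rIL-17B replicate 2, and all 10 were at least 2-fold below both PBS libraries in rIL-17B replicate 1. The 10 epithelial markers summed to 1049, 1032, 2102 and 1299 CPM in that order. The keratin KRT8 was 620 to 1358 CPM, the adhesion protein EPCAM 3.08 to 4.98 CPM and E-cadherin (CDH1) 0.454 to 0.702 CPM. ESRP1 had 0, 1, 0 and 1 counts in the same order. Keratin RNA was thus present while CDH1 was close to the floor and ESRP1 under it. KRT8, KRT7 and KRT18 carried the epithelial sum, and the list did not move as one. KRT19 was 3.05 and 3.40 CPM with PBS, 0.0638 CPM in rIL-17B replicate 1 and 3.37 CPM in rIL-17B replicate 2. The claudin CLDN4 was lower in both treated libraries than in either PBS library. The 12 monocyte and macrophage markers, examined because the library protocol in the labels mentions monocytes and these cells are rich in lysosomes, summed to 20.8, 18.7, 7.85 and 22.1 CPM, and 10 of the 12 had 0 counts in rIL-17B replicate 1 against 0 or 1 in the others. The receptor CSF1R made up most of the sum in that library and was higher in both treated libraries, at 7.59 and 6.28 CPM against 4.02 and 5.69 CPM with PBS. Fibronectin (FN1) alone was 34157 and 33059 CPM with PBS, 139 CPM in rIL-17B replicate 1 and 28041 CPM in rIL-17B replicate 2. The fibroblast sum was highest in the PBS libraries, where CDH1 was close to the floor too. The name HGC-27 was taken from the labels for every library and was not tested. The labels give the same cell line for all libraries, and whether rIL-17B replicate 1 came from the same cells as the others, or from another culture or line, was not tested, so its values cannot be read as the effect of rIL-17B alone. The part that any of these differences had in the lysosomal results was not tested either. In bulk RNA, fewer cells of a type and less RNA per cell cannot be told apart.

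With PBS, PSAP was the highest of the lysosomal transcripts in these cells labelled HGC-27, and the panel spanned a wide range of levels per length. PSAP, the precursor of the saposins that present lipids to their hydrolases (chromosome 10, 71816298 to 71851375, GENCODE 29 on GRCh38, which gives all gene coordinates), stood at 454 ± 4.16 CPM per kb of merged exons (SD, n = 2). The tetraspanin CD63 followed at 176 ± 2.50 CPM per kb, and the aspartic protease CTSD was next at 97.8 ± 0.484 CPM per kb. CTSB, CTSZ, CTSL, LAMP1 and LAMP2 completed the 8 highest at 91.4 ± 5.35, 81.7 ± 4.77, 60.7 ± 2.27, 58.8 ± 1.94 and 37.4 ± 1.31 CPM per kb. Within this order, the intervals of 1 SD around CTSB and CTSZ, and those around CTSL and LAMP1, overlapped, while the other neighbours were further apart than their SDs. With the median transcript length in place of merged exons, 5 of these 8 stayed among the 8 highest, and CTSL, LAMP1 and LAMP2 gave way to CTSA, CTSC and GLB1. The top rank changed too: that length is 0.58 kb for CTSB and 1.27 kb for PSAP, and CTSB then stood above PSAP.

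The median of the panel with PBS was 16.0 CPM per kb, and the lowest 3 genes were CTSH, CTSS and HEXA. CTSH, a cysteine protease of lung and immune cells, stood at 0.223 ± 0.0116 CPM per kb. CTSS, the cathepsin of antigen-presenting cells, stood at 0.735 ± 0.0879 CPM per kb. HEXA, the alpha subunit of beta-hexosaminidase A, stood at 0.889 ± 0.0722 CPM per kb over 12.6 kb of merged exons. Exon bases of 19 of the 40 genes are shared with another annotated gene, on the same strand in 10 of them, and how such reads were counted is not given in the sources used here. For CTSD the shared part was 52.7% of the merged exons, for CTSA 28.5%, for PPT1 23.4%, for MAN2B1 21.2%, for IDS 17.4% and for HEXA 16.3%. On the same strand it was 41.7% for CTSD, 21.2% for MAN2B1, 17.4% for IDS and 4.89% for HEXA. For CTSA and PPT1 it was 0% on the same strand.

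**Figure D1:**
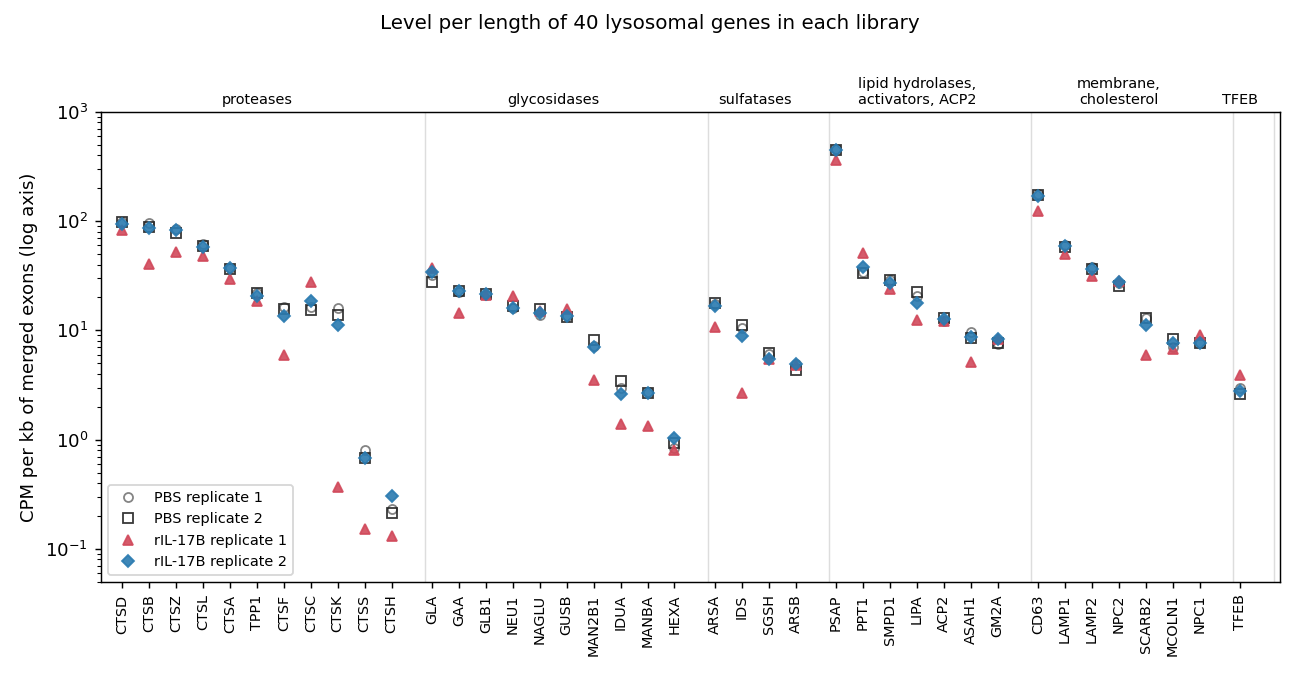
Level of each of the 40 genes in each library, as CPM per kb of merged exons on a log axis, with the genes ordered by PBS level within their role. Circles and squares are the PBS libraries, triangles rIL-17B replicate 1 and diamonds rIL-17B replicate 2. PSAP is the highest gene in every library, and the triangles of CTSK, CTSS and IDS lie well below the other 3 symbols.

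As a whole, the panel took a smaller share of the reads in 1 of the treated libraries. Counts of the 40 genes were 0.609% of PBS replicate 1 (95% Wilson interval 0.605 to 0.613%) and 0.601% of PBS replicate 2 (0.597 to 0.606%). They were 0.525% of rIL-17B replicate 1 (0.521 to 0.529%) and 0.594% of rIL-17B replicate 2 (0.590 to 0.597%). These intervals cover counting error only, because PCR copies without molecular identifiers are not independent molecules. In summed level, the panel reached 6278 and 6125 CPM with PBS, 4893 CPM in rIL-17B replicate 1 and 6065 CPM in rIL-17B replicate 2. Both treated libraries lay below both PBS libraries, rIL-17B replicate 2 by less than the gap between the PBS libraries.

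Within the panel, the share of PSAP was steady and other shares were not. PSAP took 23.6 and 23.9% of the panel's reads with PBS, and 24.0 and 23.8% with rIL-17B. Without it the sums were 4797 and 4663 CPM with PBS, against 3717 and 4620 CPM with rIL-17B. CTSB, a cysteine cathepsin, took 11.3 and 10.6% of the panel's reads with PBS, 6.12% (95% Wilson interval 5.96 to 6.30%) for rIL-17B replicate 1 and 10.7% for rIL-17B replicate 2. Proteases together took 31.3 and 30.4% with PBS, and 28.8 and 30.9% in rIL-17B replicates 1 and 2. The sulfatases took 3.73 and 3.86% with PBS, and 2.78 and 3.51% with rIL-17B.

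When the groups were compared, no lysosomal gene passed the test. The quasi-likelihood test of edgeR, adjusted by Benjamini-Hochberg over all 16361 genes, called 0 of the 40 genes higher and 0 lower (background 0% in each direction), with adjusted p-values from 0.661 to 0.985. At an unadjusted p under 0.05 it listed 0 of the 40, against 226 of all genes (1.38%, with 0.905% higher and 0.477% lower), and DESeq2 called 0 after adjustment and listed CTSC and LIPA before it, beside 457 of all genes (2.79%). The log2 fold change of rIL-17B over PBS was above 0 for 12 genes and below 0 for 28, with a median of -0.15 against -0.03 over all genes tested. Both rIL-17B libraries lay above both PBS libraries for 6 genes and below them for 16, against 28.6% and 30.3% of all genes in these directions, and the groups overlapped for the remaining 18. With 2 libraries on each side the two-sided p of an exact permutation test is at least 0.33, so none was used.

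Read one library at a time, rIL-17B replicate 1 differed and rIL-17B replicate 2 stayed close to PBS. In rIL-17B replicate 1, 8 of the 40 genes were at least 2-fold below both PBS libraries (CTSB, CTSF, CTSK, CTSS, IDUA, MAN2B1, IDS and SCARB2) and 0 were 2-fold above, with backgrounds of 18.3% and 0.495% of all genes. In rIL-17B replicate 2, 0 genes were 2-fold below or above, with backgrounds of 0.134% and 0.0244%. The median log2 ratio to the PBS mean was -0.27 for rIL-17B replicate 1 and -0.02 for rIL-17B replicate 2, against -0.04 and -0.01 over all genes. Within 1.1-fold of the PBS mean lay 6 genes for rIL-17B replicate 1 and 27 genes for rIL-17B replicate 2. For scale, the PBS libraries differed from each other by a median of 1.05-fold and by at most 1.20-fold, for MCOLN1.

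A fit of each treated library alone against both PBS libraries, in which the lone library is assumed to vary like the PBS pair, compares libraries and not conditions. edgeR's adjusted p was under 0.05 for 7 genes higher and 23 lower in rIL-17B replicate 1, where the backgrounds were 23.2% and 31.9% of 17223 genes. For rIL-17B replicate 2 it was under 0.05 for 0 of the 40 genes in either direction, with backgrounds of 0.643% and 2.3% of 17103 genes, and 7 genes had an unadjusted p under 0.05, namely CTSC, CTSF, CTSK, GLA, IDS, LIPA and SCARB2. These 7 are 17.5% of the panel, beside 13.7% of all genes at that limit. LIPA came nearest, with an adjusted p of 0.0538 in that edgeR fit.

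**Figure D2:**
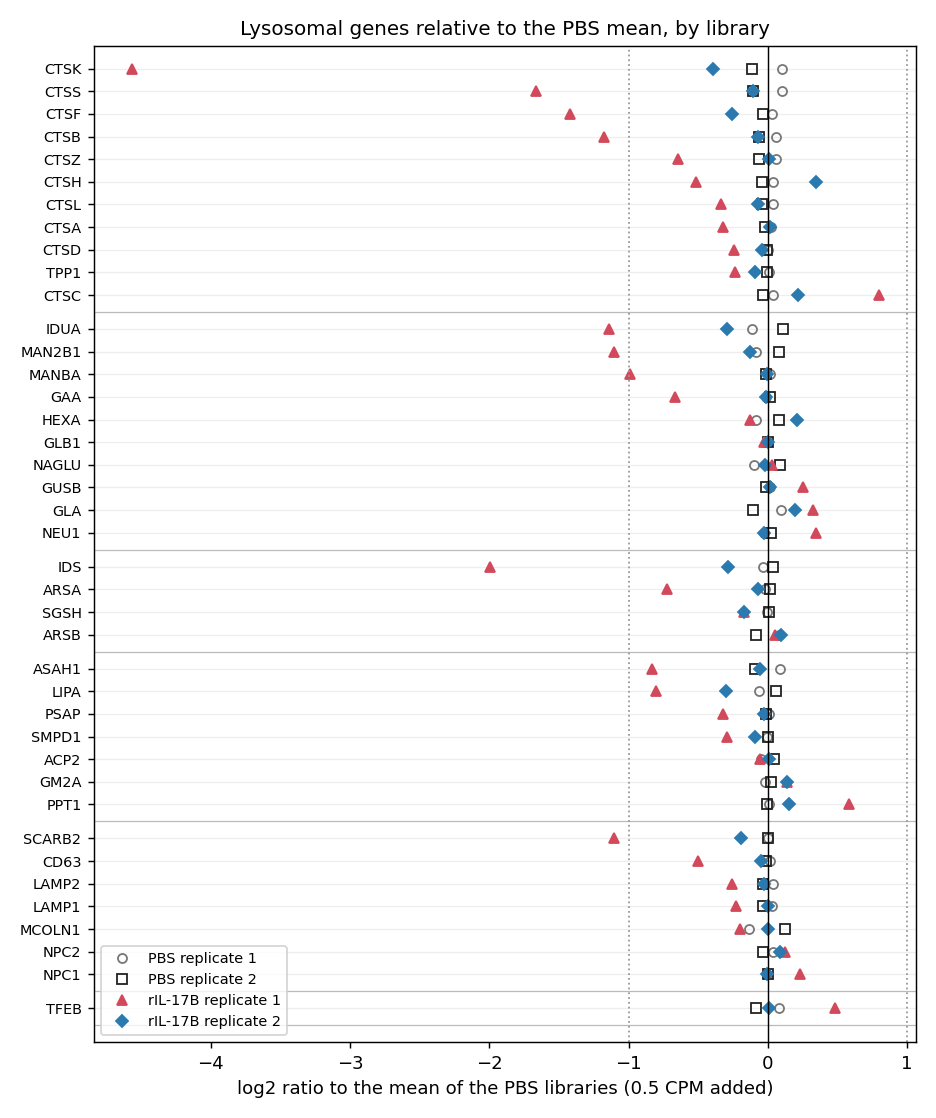
Log2 ratio of each gene to the mean of the PBS libraries, with 0.5 CPM added, for the 4 libraries; symbols mark the libraries as in the legend, horizontal lines divide the roles and dotted lines mark 2-fold. Triangles of 8 genes lie left of the lower 2-fold line beyond both PBS symbols, that of MANBA lies on it, and no diamond reaches either line.

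Cathepsins and TPP1 make up the proteases, the enzymes that cut proteins in the lysosome. Of the 11, 1 had a log2 fold change above 0 and 10 below, with a median of -0.20, and 0 passed the test. Their median log2 ratio to the PBS mean was -0.52 for rIL-17B replicate 1 and -0.07 for rIL-17B replicate 2, and 4 of them were 2-fold below PBS in the former (18.3% of all genes) and 0 in the latter (0.134%). Groups did not overlap for 1 gene on the higher side and 6 on the lower, where the shares over all genes were 28.6% and 30.3%.

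CTSK, the collagen-cutting cathepsin of osteoclasts and fibroblasts (chromosome 1, 150796208 to 150808323), was 30.1 and 25.8 CPM with PBS, 0.702 CPM in rIL-17B replicate 1 and 21.2 CPM in rIL-17B replicate 2. The 11 counts behind the third value were 0.0251 of the PBS mean, the lowest ratio of the panel, and rIL-17B replicate 2 was the lowest of the remaining libraries. The log2 fold change was -1.35 ± 1.52 (SE; edgeR adjusted p = 0.698). CTSS lies beside CTSK on the same chromosome (150730196 to 150765957) and was 3.37 and 2.85 CPM with PBS, 0.638 CPM in rIL-17B replicate 1 and 2.85 CPM in rIL-17B replicate 2. Here the single low library had 10 counts and rIL-17B replicate 2 was level with PBS replicate 2 (log2 fold change -0.83 ± 0.81, edgeR adjusted p = 0.676).

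CTSB, a cysteine protease of most cells (chromosome 8, 11842524 to 11869448), was 707 and 651 CPM with PBS, 299.7 CPM in rIL-17B replicate 1 and 647 CPM in rIL-17B replicate 2. Only replicate 1 of the treated pair stood away from PBS, although the groups did not overlap (log2 fold change -0.52 ± 0.43, edgeR adjusted p = 0.662). CTSF, another cysteine cathepsin (chromosome 11, 66563463 to 66568841), was 47.6 and 45.5 CPM with PBS, 17.1 CPM in rIL-17B replicate 1 and 38.8 CPM in rIL-17B replicate 2. Both treated libraries were lower than PBS, the first by far more (log2 fold change -0.74 ± 0.45, edgeR adjusted p = 0.661).

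Among the proteases, CTSC was the gene with the opposite pattern. It encodes dipeptidyl peptidase I, which activates granule proteases of immune cells (chromosome 11, 88293592 to 88337787), and it was 186 and 176 CPM with PBS, 315 CPM in rIL-17B replicate 1 and 210.4 CPM in rIL-17B replicate 2. Both treated libraries were above PBS, and the ratio of 1.74 in rIL-17B replicate 1 was the highest of the panel. The log2 fold change was 0.54 ± 0.24, with an edgeR adjusted p of 0.661.

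The abundant proteases were nearer to PBS. CTSD (chromosome 11, 1752752 to 1764573) was 307 and 305 CPM with PBS, against 259 and 297 CPM with rIL-17B, so that the groups did not overlap but rIL-17B replicate 2 was within 1.1-fold of PBS (log2 fold change -0.14 ± 0.13, edgeR adjusted p = 0.669). CTSL, whose family includes 5 annotated pseudogenes named after it (chromosome 9, 87725519 to 87731393), was 147 and 139.9 CPM with PBS, against 114 and 137 CPM with rIL-17B. Its log2 fold change was -0.20 ± 0.14 (edgeR adjusted p = 0.661), with rIL-17B replicate 2 just below the PBS range. CTSZ, a carboxypeptidase also called cathepsin X (chromosome 20, 58995185 to 59007247), was 173 and 159.7 CPM with PBS, against 107 and 168 CPM with rIL-17B. Replicate 2 of rIL-17B lay between the PBS libraries (log2 fold change -0.28 ± 0.26, edgeR adjusted p = 0.671).

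The other proteases were CTSA, TPP1 and CTSH. CTSA, the carboxypeptidase that protects neuraminidase and beta-galactosidase and whose promoter holds the element printed above, was 218 and 211 CPM with PBS, against 172 and 217 CPM with rIL-17B. TPP1, the tripeptidyl peptidase lost in a form of Batten disease, was 145 and 143 CPM with PBS, against 122 and 135 CPM with rIL-17B. CTSH was between 0.765 and 1.80 CPM in all libraries, and rIL-17B replicates 1 and 2 held its lowest and highest value.

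**Figure D3:**
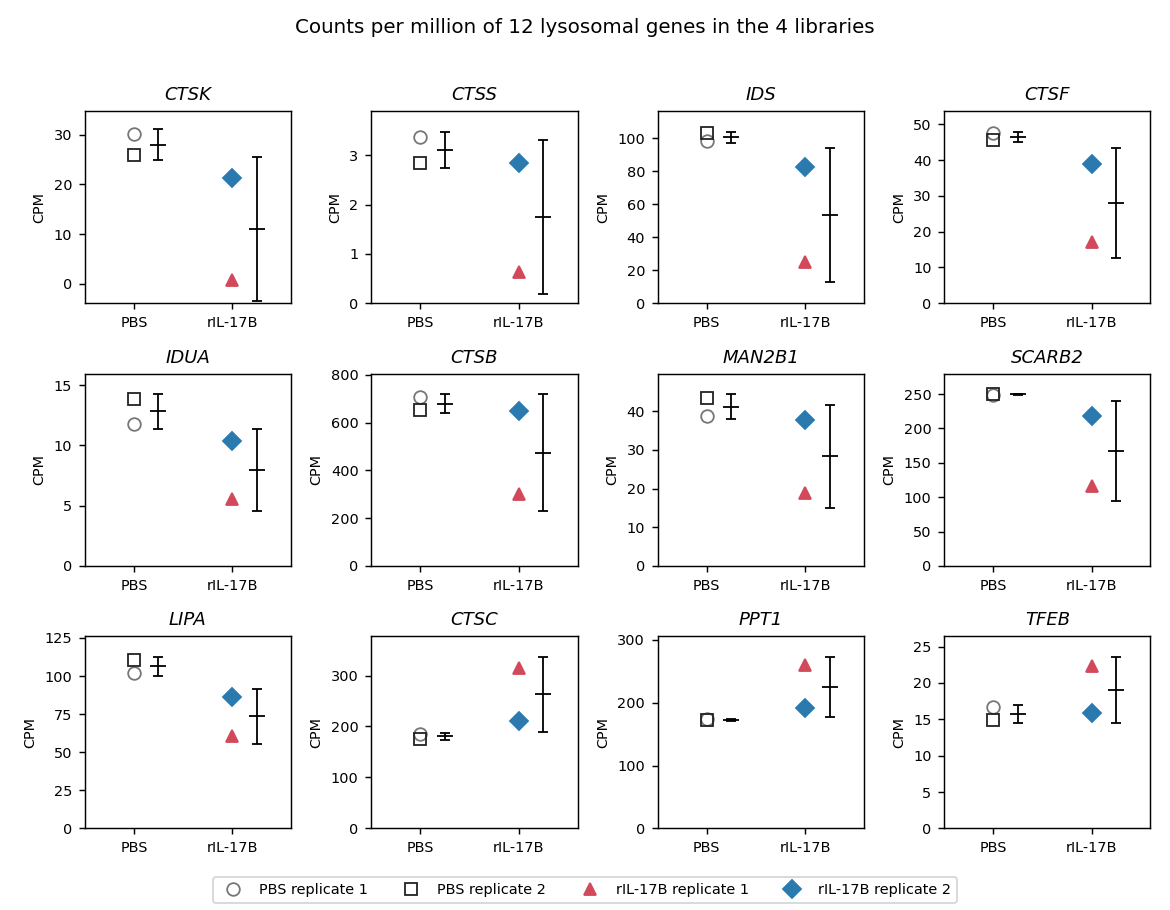
CPM of 12 lysosomal genes in each library, with circles and squares for PBS, triangles for rIL-17B replicate 1 and diamonds for rIL-17B replicate 2, and with a bar beside each group for the mean ± SD (n = 2). The bars of rIL-17B are wide because its libraries differ, and in CTSK the lower end of the bar falls below 0. The diamonds of CTSK, IDS, CTSF, IDUA, SCARB2 and LIPA, and by little those of MAN2B1 and CTSB, lie below both PBS symbols. Those of CTSC and PPT1 lie above them, and those of CTSS and TFEB between them.

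Glycosidases, which remove sugars from glycoproteins, glycolipids and glycosaminoglycans, were split evenly. Of the 10, 5 had a log2 fold change above 0 and 5 below, with a median of 0.00, and 0 passed the test. Groups did not overlap for 2 genes on the higher and 2 on the lower side, below the 28.6% and 30.3% of all genes. The median log2 ratio to the PBS mean was -0.08 for rIL-17B replicate 1 and -0.01 for rIL-17B replicate 2.

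IDUA and MAN2B1 were the glycosidases 2-fold below PBS in rIL-17B replicate 1. IDUA, the iduronidase of heparan and dermatan sulfate breakdown (chromosome 4, 986997 to 1004506), was 11.8 and 13.8 CPM with PBS, 5.55 CPM in rIL-17B replicate 1 and 10.4 CPM in rIL-17B replicate 2. Both treated libraries were below both PBS libraries, and the log2 fold change was -0.69 ± 0.39 (edgeR adjusted p = 0.661). MAN2B1, the lysosomal alpha-mannosidase (chromosome 19, 12646511 to 12666742), was 38.8 and 43.5 CPM with PBS, 18.9 CPM in rIL-17B replicate 1 and 37.7 CPM in rIL-17B replicate 2. The latter was close to PBS replicate 1 (log2 fold change -0.54 ± 0.39, edgeR adjusted p = 0.661).

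GLA was higher in both treated libraries. This alpha-galactosidase, the enzyme missing in Fabry disease (chromosome X, 101397803 to 101408012), was 72.5 and 62.9 CPM with PBS, 84.8 CPM in rIL-17B replicate 1 and 77.6 CPM in rIL-17B replicate 2. The groups did not overlap, yet the gap between PBS replicate 1 and rIL-17B replicate 2 was smaller than the gap between the PBS libraries. Its log2 fold change was 0.26 ± 0.13 (edgeR adjusted p = 0.661).

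Of the remaining glycosidases, MANBA and GAA were lower in rIL-17B replicate 1 alone. MANBA, the beta-mannosidase, was 31.8 and 31.1 CPM with PBS, against 15.6 and 31.4 CPM with rIL-17B, just short of the 2-fold limit after 0.5 CPM was added. GAA, the acid alpha-glucosidase that digests glycogen and whose promoter holds the element printed above at 2 places, was 117 and 119 CPM with PBS, against 74.2 and 117 CPM with rIL-17B. NEU1, the sialidase that forms a complex with CTSA, was 77.4 and 80.3 CPM with PBS and was higher in rIL-17B replicate 1 alone, at 100.3 CPM against 77.5 CPM in rIL-17B replicate 2. The beta-glucuronidase GUSB, which has 11 named pseudogenes that could share its reads, was 53.7 and 52.5 CPM with PBS, against 63.3 and 53.8 CPM with rIL-17B. GLB1, the beta-galactosidase read as a senescence marker, differed little, at 92.6, 93.1, 91.0 and 93.0 CPM in the same order. NAGLU, which acts on heparan sulfate, was 41.2 and 47.0 CPM with PBS, 45.0 CPM in rIL-17B replicate 1 and 43.6 CPM in rIL-17B replicate 2. HEXA was 10.6 and 11.9 CPM with PBS, 10.2 CPM in rIL-17B replicate 1 and 13 CPM in rIL-17B replicate 2, and the groups overlapped for both genes.

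Sulfatases, which remove sulfate from glycosaminoglycans and sulfolipids, had a median log2 fold change of -0.27, with 1 of the 4 above 0 and 0 passing the test. Their median log2 ratio to the PBS mean was -0.45 for rIL-17B replicate 1 and -0.12 for rIL-17B replicate 2. IDS, which acts one step before IDUA and is lost in Hunter syndrome (chromosome X, 149476990 to 149521096), was 98.2 and 103 CPM with PBS, 24.9 CPM in rIL-17B replicate 1 and 82.4 CPM in rIL-17B replicate 2. Both treated libraries were below PBS, the first to 0.248 and the second to 0.818 of the PBS mean (log2 fold change -0.91 ± 0.63, edgeR adjusted p = 0.661). SGSH, the heparan sulfamidase (chromosome 17, 80206716 to 80220923), was 41.0 and 41.3 CPM with PBS, against 36.4 and 36.5 CPM with rIL-17B. This was the lower gene in which the treated libraries were nearest to each other, and its log2 fold change was -0.17 ± 0.10 (edgeR adjusted p = 0.661). ARSA, the sulfatase of myelin sulfatide, was 51.0 and 52.4 CPM with PBS, against 31.2 and 49.2 CPM with rIL-17B, and ARSB was 44.1 and 39.4 CPM with PBS, against 43.2 and 44.7 CPM with rIL-17B.

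Among the lipid hydrolases, their activators and the phosphatase ACP2, 2 of 7 genes had a log2 fold change above 0, the median was -0.17, and 0 passed the test. The median log2 ratio to the PBS mean was -0.29 for rIL-17B replicate 1 and -0.03 for rIL-17B replicate 2. LIPA had the smallest p of the 40 genes. This acid lipase frees cholesterol and fatty acids from lipids taken up by endocytosis (chromosome 10, 89213569 to 89414557), and it was 102 and 111 CPM with PBS, 60.9 CPM in rIL-17B replicate 1 and 86.5 CPM in rIL-17B replicate 2. Both treated libraries lay below PBS by more than the PBS libraries differed. The log2 fold change was -0.53 ± 0.21 (edgeR adjusted p = 0.661).

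PPT1 was higher in both treated libraries. The thioesterase removes palmitate from proteins (chromosome 1, 40071461 to 40097727), and it was 174 and 172 CPM with PBS, 259 CPM in rIL-17B replicate 1 and 192 CPM in rIL-17B replicate 2. The log2 fold change was 0.38 ± 0.19 (edgeR adjusted p = 0.661). PSAP was 1481 and 1462 CPM with PBS, 1176 CPM in rIL-17B replicate 1 and 1444 CPM in rIL-17B replicate 2. Its groups did not overlap by a margin smaller than the gap between the PBS libraries (log2 fold change -0.17 ± 0.17, edgeR adjusted p = 0.683).

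The remaining lipid genes followed either pattern. GM2A, the activator that presents the GM2 ganglioside for breakdown, was 33.4 and 34.5 CPM with PBS and 37.5 CPM in each rIL-17B library. Acid ceramidase (ASAH1) was 148 and 131 CPM with PBS, 78.3 CPM in rIL-17B replicate 1 and 134 CPM in rIL-17B replicate 2, which lay inside the PBS range. SMPD1, the acid sphingomyelinase, was 79.7 and 80.0 CPM with PBS, against 65.2 and 74.8 CPM with rIL-17B, and ACP2 was 42.3 and 45.3 CPM with PBS, against 42.1 and 44.2 CPM with rIL-17B.

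Membrane and cholesterol-transfer proteins had a median log2 fold change of -0.11, with 2 of 7 above 0 and 0 passing the test. The median log2 ratio to the PBS mean was -0.23 for rIL-17B replicate 1 and -0.01 for rIL-17B replicate 2. SCARB2, also called LIMP-2, carries glucocerebrosidase to the lysosome (chromosome 4, 76158733 to 76234536). It was 249 and 249.8 CPM with PBS, 116 CPM in rIL-17B replicate 1 and 218 CPM in rIL-17B replicate 2. Both treated libraries were below a pair of PBS libraries that were almost equal, and the log2 fold change was -0.58 ± 0.35 (edgeR adjusted p = 0.661).

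Unlike SCARB2, the membrane proteins LAMP1, LAMP2 and CD63 stayed within 1.5-fold of PBS in both treated libraries. LAMP1 (chromosome 13, 113297241 to 113323672) was 346 and 329.8 CPM with PBS, 287 CPM in rIL-17B replicate 1 and 338 CPM in rIL-17B replicate 2, with overlapping groups (log2 fold change -0.11 ± 0.14, edgeR adjusted p = 0.717). LAMP2 (chromosome X, 120427827 to 120469365) was 212 and 202 CPM with PBS, against 173 and 203 CPM with rIL-17B, again with overlap (log2 fold change -0.14 ± 0.13, edgeR adjusted p = 0.673). CD63 (chromosome 12, 55725323 to 55729707), which also marks exosomes, was 467 and 458 CPM with PBS, against 327 and 448 CPM with rIL-17B. Both were lower than PBS, the second by about as much as the PBS libraries differed (log2 fold change -0.26 ± 0.20, edgeR adjusted p = 0.661).

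The cholesterol exporters and the calcium channel differed little. NPC1 was 77.3 and 77.8 CPM with PBS, 91.0 CPM in rIL-17B replicate 1 and 77.3 CPM in rIL-17B replicate 2. NPC2, its soluble partner, was 74.0 and 70.5 CPM with PBS, against 78.6 and 76.8 CPM with rIL-17B, and both treated libraries were higher. MCOLN1, the lysosomal calcium channel whose promoter holds the element printed above at 2 places, was 27.7 and 33.2 CPM with PBS, against 26.5 and 30.4 CPM with rIL-17B.

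TFEB, the transcription factor of the panel (chromosome 6, 41683978 to 41736259), was 16.7 and 14.9 CPM with PBS, 22.3 CPM in rIL-17B replicate 1 and 15.8 CPM in rIL-17B replicate 2. The second treated library lay inside the PBS range and the first above it. The log2 fold change was 0.27 ± 0.24 (edgeR adjusted p = 0.665). The 4 genes with TCACGTGA in the promoter, CTSA, GAA, LAMP1 and MCOLN1, had log2 fold changes of -0.14, -0.30, -0.11 and -0.10, all with overlapping groups. TFEB activity depends largely on where the protein is in the cell, which RNA counts do not measure.

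Other genes of the lysosome were read from 6 lists written for this comparison, and the quasi-likelihood test of edgeR, adjusted by Benjamini-Hochberg, called 0 genes in any of them. At an unadjusted p under 0.05 it also listed 0. Of 22 tested V-ATPase genes, which encode the proton pump, both treated libraries lay above PBS for 8 and below for 5, beside 28.6% and 30.3% of all genes. The median log2 fold change was 0.06, and the median log2 ratio to the PBS mean was 0.10 for rIL-17B replicate 1 and 0.04 for rIL-17B replicate 2. Its smallest p-values belonged to subunit e2 (ATP6V0E2) at 49.3 and 66.5 CPM with PBS, against 24.6 and 41.2 CPM with rIL-17B, and to subunit E2 (ATP6V1E2) at 4.02 and 4.50 CPM with PBS, against 8.04 and 6.40 CPM with rIL-17B.

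Enzyme delivery was the list with most genes above PBS. It holds the makers and receptors of the mannose 6-phosphate tag and the adaptors and retromer parts that move them, and 18 of its 23 genes had a log2 fold change above 0, with a median of 0.11. Both treated libraries lay above both PBS libraries for 11 of the 23 and below for 2, beside 28.6% and 30.3% of all genes. GNPTAB, a subunit of the transferase that makes the tag, was 67.0 and 66.9 CPM with PBS, against 79.7 and 75.1 CPM with rIL-17B. The adaptor GGA2 was 44.1 and 43.8 CPM with PBS, against 53.7 and 50.2 CPM with rIL-17B. In neither gene did the groups overlap, and the edgeR adjusted p was 0.661 for both.

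The other hydrolases (24 genes tested) had a median log2 fold change of -0.03, with 6 genes on the higher and 8 on the lower side without overlap, about the shares of all genes (28.6% and 30.3%). By library the medians of the log2 ratio were -0.06 and 0.00. HYAL1, a hyaluronidase, was 12.1 and 10.9 CPM with PBS, against 24.8 and 14.2 CPM with rIL-17B, and PRCP, a carboxypeptidase, was 123 and 122.7 CPM with PBS, against 76.1 and 103 CPM with rIL-17B. For 27 other membrane proteins the median was -0.12 (-0.16 and -0.05 by library). Groups did not overlap for 5 of these genes on the higher and 9 on the lower side, beside 28.6% and 30.3% of all genes. The channel MCOLN2, at 3.24 to 4.08 CPM with PBS and 5.35 to 6.76 CPM with rIL-17B, and the endosomal protein LITAF, at 142 to 154 CPM with PBS and 179 to 237 CPM with rIL-17B, were the membrane genes of smallest p. Both were higher in each treated library than in either PBS library.

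Among 17 MiT/TFE factors and regulators the median log2 fold change was -0.11, with 4 genes higher and 5 lower without overlap, near the 28.6% and 30.3% of all genes, and the medians by library were -0.06 and -0.02. MITF, a relative of TFEB, was 24.2 and 21.3 CPM with PBS, against 42.4 and 27.2 CPM with rIL-17B, and MTOR, the kinase that keeps these factors out of the nucleus, was 119.7 and 119 CPM with PBS, against 166 and 135 CPM with rIL-17B. The cathepsin inhibitors had 3 tested genes of 8, with a median of -0.78 (-1.59 and -0.14 by library) and 2 genes lower without overlap, too few to set beside the 30.3% of all genes. Cystatin C (CST3), a secreted inhibitor of cysteine cathepsins, was 136 and 132 CPM with PBS, 37.7 CPM in rIL-17B replicate 1 and 119 CPM in rIL-17B replicate 2. Cystatin A (CSTA) was 1.36 and 1.42 CPM with PBS, 0.128 CPM in rIL-17B replicate 1, under the floor, and 1.22 CPM in rIL-17B replicate 2.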

How the data were processed

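The authors deposited counts of reads per gene name, 1 list per library, without normalization. The submitters' processing notes name HISAT2 2.1.0, Bowtie2 2.2.3, TopHat2 and HTSeq 0.6.0 and the build hg38, with no role or order; the annotation, strand use and handling of shared reads are not given in the sources used here. Libraries were made by Smart-seq2 from an oligo-dT primer with PCR amplification. Between 83 and 98 names per library were repeated with an equal count and used once, 22 to 25 entries whose names had become dates were left out, and a missing name was taken as 0. Groups and replicate numbers came from the labels. Counts were fitted in edgeR 4.0.16 (R 4.3.3) with TMM, filterByExpr and the quasi-likelihood test, Benjamini-Hochberg adjustment over 16361 genes and a threshold of 0.05. The fit was tested on simulated data. Standard errors were obtained as |log2 fold change| over √F. Ratios and 2-fold counts used 0.5 CPM added, and lengths were merged exons of GENCODE 29. Alternatives were DESeq2 1.42.0, other scalings, filters, thresholds and lengths, a replicate block, and leaving out each library. The panel and lists were chosen with earlier results of these data known. Full values are given for the 8 highest genes per length, the 8 of smallest p, those 2-fold from both PBS libraries in either treated library, and TFEB; from each list, the 2 genes of smallest p.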

Additional observations from a re-analysis of the deposited data

How the results depend on the processing

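Calls depended on the treated libraries. The fits without rIL-17B replicates 1 and 2 tested 17103 and 17223 genes, respectively, and all 40 of the panel. In both, the 6 other lysosomal lists had 22, 23, 24, 27, 17 and 3 tested genes, in the order of the Results. Where rIL-17B replicate 1 was the lone treated library, large shares of all genes were called, as given above. The counts below are therefore not specific to lysosomal genes. Leaving out each library in turn gave 0 to 9489 genes called over all genes, 0 to 30 of the 40 lysosomal genes and 0 to 65 genes of the other lysosomal lists. Without rIL-17B replicate 1 the counts were 504, 0 and 1, and without rIL-17B replicate 2 they were 9489, 30 and 65, in fits where the lone treated library is assumed to vary like the PBS pair. The number of genes with a p under 0.05 was 226 in the reported fit, 457 with DESeq2, 879 without a filter, 462 with at least 10 counts in every library, 2 without either PBS library, 2344 without rIL-17B replicate 1 and 10134 without rIL-17B replicate 2. The median log2 fold change of the 40 genes was -0.02 without rIL-17B replicate 1 and -0.27 without rIL-17B replicate 2, and -0.09 with library totals in place of TMM, an alternative added after seeing the data. Also added then, lysosomal genes with both groups apart on the lower side numbered 16 as reported, 17 without rIL-17B replicate 1 and 29 without rIL-17B replicate 2. The shares of all genes beside them were 30.3%, 37.1% and 47.6%. On the higher side the numbers were 6, 9 and 9, beside 28.6%, 36.0% and 42.5% of all genes. The 8 genes 2-fold below PBS in rIL-17B replicate 1 became 5 with 2 CPM added, 13 at 1.5-fold and 4 with library totals, and the 0 genes above became 1 at 1.5-fold. Shares of all genes at these other settings were not worked out, so these counts have no background beside them. With the median transcript length, 5 of the 8 highest genes were kept, and CTSB stood above PSAP. The cause of these shifts was not tested.

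The sign of the log2 fold change of NAGLU turned with DESeq2, to -0.0029, and with at least 10 counts in every library, to -0.035. When libraries were left out in turn, signs turned for 10 genes without rIL-17B replicate 1, 3 without each PBS library and 1 without rIL-17B replicate 2, over ranges of -0.32 to 0.015 for CTSA, -0.77 to 0.45 for CTSH, -0.65 to 0.0081 for CTSZ, -0.029 to 0.0038 for GLB1, -0.13 to 0.22 for HEXA, -0.087 to 0.10 for NAGLU, -0.023 to 0.35 for NEU1, -0.0068 to 0.16 for ARSB, -0.071 to 0.026 for ACP2, -0.23 to 0.0031 for LAMP1, -0.0041 to 0.23 for NPC1 and -0.22 to 0.039 for MCOLN1.

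A replicate block in the fit gave 0 called genes, 0 of them lysosomal, 173 had a p under 0.05, and the median of the 40 genes was -0.16. The deviations of PBS replicate 1 and rIL-17B replicate 1 from their group means had a correlation of 0.080 over 16361 genes. With 2 libraries per group, the other pair mirrors this one and adds nothing. The labels do not say whether a number marks a shared batch, so that is not known. The replicate block changed no other call. Values of CTSH, CTSS and CTSK in rIL-17B replicate 1 rest on few counts, between 10 and 12. CTSK had 465 and 327 counts with PBS.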

Other observations

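A few lysosomal genes whose exons share many bases with other annotated genes were listed at very low counts. Of 166 lysosomal genes in the panel and the lists, 4 have at least 50% of their merged exon bases covered by another gene on the same strand, a limit chosen after the values were seen. ATP6V0C, the proteolipid subunit of the proton pump (chromosome 16, 2513870 to 2520218), is covered over 72.1% and had 2, 9, 4 and 2 counts in PBS replicates 1 and 2 and rIL-17B replicates 1 and 2. The macrophage glycoprotein CD68 (chromosome 17, 7579467 to 7582113) is covered over 81.7% and had 0, 0, 2 and 1 counts. SPNS1, a lysosomal lipid transporter (chromosome 16, 28974221 to 28984548), is covered over 55.4% and had 13 to 21 counts, and ATP6V1B1, a pump subunit of kidney and inner ear (chromosome 2, 70935868 to 70965431), over 62.4%, with 2 to 23 counts. CTSD, covered over 41.7%, fell short of the limit and had 3855 to 5109 counts. Among the other 162 genes, 16 had a median count under 25. The part that shared exons had in these counts was not tested.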
